A study of Mus musculus with 6 samples.

Results

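The regions described here are p300 sites that lay in narrow gaps between consecutive peaks of histone H3 mono-methylated at lysine 4 (H3K4me1) in mouse macrophages. A site was a merged p300 peak from LPS-treated or untreated cells. It was taken when its centre fell in a gap of 100 to 1500 bp between neighbouring H3K4me1 peaks on chromosomes 1 to 19 or X. The rule found 1532 gap sites among 19879 p300 sites (7.71%), in 1525 gaps, of which 1518 held 1 site and 7 held 2. They were set against the 7172 sites (36.1%) whose centre lay inside an H3K4me1 peak, called inside sites. The other 11175 sites lay in gaps under 100 bp (172), in gaps over 1500 and up to 3000 bp (613), in gaps over 3000 bp (10352) or beyond the outermost peak of a chromosome (38). The members were thus chosen by the p300 and H3K4me1 peak positions, so H3K4me1 levels, and those of input, against which the H3K4me1 peaks were called, are given as descriptions.

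p300 is a histone acetyltransferase and co-activator that DNA-binding transcription factors bring to enhancers. H3K4me1 is carried by nucleosomes around enhancers, and the bound centre of an enhancer often holds few nucleosomes, so that the mark forms a shoulder on each side. PU.1, an ETS-family transcription factor, binds a large share of enhancers in macrophages and is needed to form this lineage.

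The cells were primary macrophages grown with L929-conditioned medium from bone marrow of female Fvb mice and taken at day 7 of differentiation. One group was stimulated with lipopolysaccharide (LPS, 10 ng/ml for 2 h), a bacterial outer-membrane glycolipid, and the other was untreated. Chromatin immunoprecipitation with sequencing (ChIP-seq) was done for p300 and PU.1 in LPS-treated and untreated cells and for H3K4me1 in untreated cells, beside untreated input DNA. No LPS-treated H3K4me1 library was analysed here, so gaps after LPS are those of untreated cells. p300 had 2 biological replicates per condition, pooled in each peak list, and every other combination had 1 library, so no p-value across libraries is given for PU.1, H3K4me1 or input. No expression was measured, so the macrophage label was not checked against marker genes. In such bulk chromatin, more cells with a bound site and more binding per cell cannot be told apart.

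The libraries held 5744811 to 7828655 reads, and 5503587 to 6428281 remained once reads that shared a position and strand were reduced to 1. The p300 libraries differed in enrichment. Gap sites held 0.353% and 0.968% of the reads of LPS replicates 1 and 2, against 0.192% and 1.17% of those of untreated replicates 1 and 2. Untreated replicate 1 was the weakest, with 2.91 times as many reads at gap site centres as far from them, while the other p300 libraries had 5.66 to 13.5 times as many. The groups by p300 reads, the correlations of p300 with PU.1 and the p300 calls are therefore also given without it.

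The 1525 gaps with a p300 site were 6.32% of the 24139 gaps of 100 to 1500 bp. Gaps with p300 had a median width of 514 bp (quartiles 268 and 847), against 391 bp (193 and 791) for the 22614 gaps without. Their weaker flanking H3K4me1 peak had a median MACS score of 109, against 80.3 for gaps without p300. The share of gaps with p300 was 3.98% (exact 95% interval 3.50 to 4.49) at widths of 100 to 199 bp, 5.94% (5.35 to 6.57) at 200 to 399 bp, 8.23% (7.55 to 8.95) at 400 to 799 bp and 7.16% (6.52 to 7.84) at 800 to 1500 bp. The share per gap was thus lowest in the narrowest gaps, and the intervals of the first 3 width bins did not overlap. Wider gaps offer more bases for a centre to fall in. From the narrowest bin to the widest the share rose by less than gap width did. Per base, p300 centres were thus denser in the narrowest gaps than in the widest. Per Mb, gaps held 120 p300 centres, against 98.5 inside H3K4me1 peaks, while PU.1 centres were less dense in gaps (319 against 371 in LPS-treated cells, 326 against 383 in untreated cells). These and later intervals cover counting error only, and neighbouring sites are not independent replicates.

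**Figure D1:**
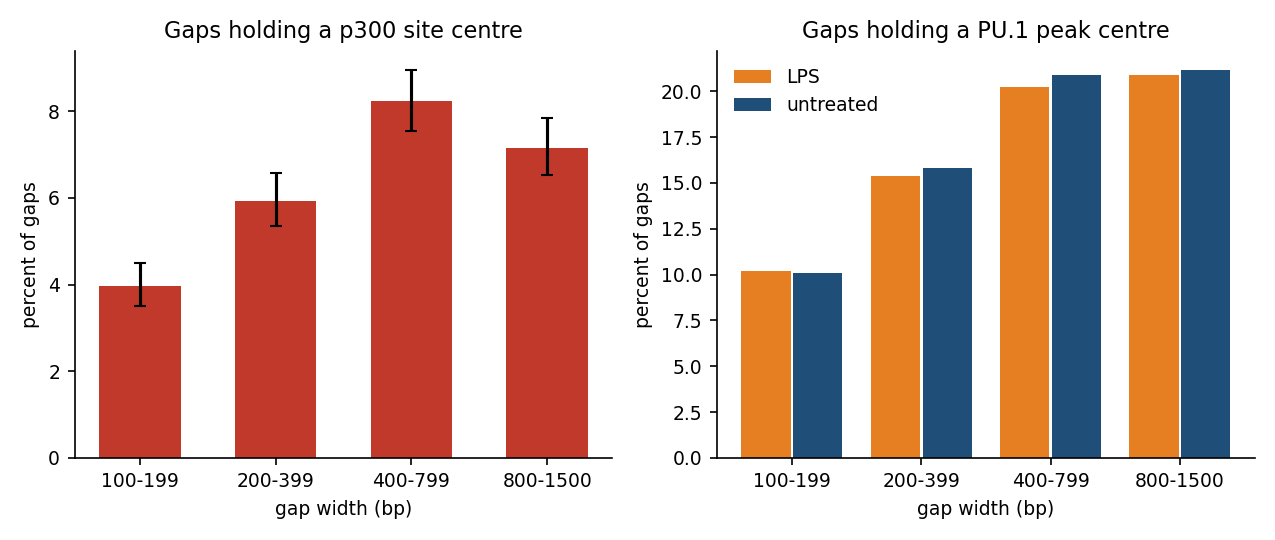
Percent of gaps between H3K4me1 peaks that held a p300 site centre (left, bars with exact 95% intervals) or a PU.1 peak centre (right, LPS and untreated lists), by gap width in bp. p300 was found in 3.98% of the narrowest gaps and 8.23% of those of 400 to 799 bp.

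A PU.1 peak centre lay in 71.3% (68.9 to 73.5) of gaps with p300 in the LPS list, and the untreated list gave the same count, 1087 gaps. In gaps without p300 it was 12.9% after LPS and 13.3% in untreated cells. The plot of gaps by width shows that the share of all gaps with PU.1 was 10.2% at the narrowest width and 20.9% at the widest after LPS, and 10.1% and 21.1% in untreated cells.

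At gap sites the mark fell away at the p300 centre, as the rule requires. Within the central 200 bp, H3K4me1 density was 1.72 RPKM (reads per kb, scaled to library depth), against 7.11 at 300 to 1000 bp on either side, a log2 ratio of −2.05. Tops of 7.58 and 7.72 lay at −675 bp and 525 bp from the centre. At inside sites the centre and flanks had 6.88 and 7.22, a log2 ratio of −0.07, with tops at −275 bp and 325 bp. Of the gap sites, 1482 (96.7%) had less H3K4me1 at the centre than in the flanks, as did 50.8% of inside sites. The middles of gaps without p300 had a log2 ratio of −1.67. A low centre was thus common to gaps with and without p300, which differed more in their shoulders (7.11 against 5.73).

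Pooled over all gap sites, input had the opposite profile. Its central density was 1.46 RPKM at gap sites and 1.24 at inside sites, against 0.817 at the middles of gaps without p300. The log2 ratio of centre to flanks was 0.37 at gap sites and 0.24 at inside sites, but −0.28 at middles without p300. Gaps with p300 held no input read in 9.05% of cases, gaps without p300 in 26.7%. Gaps with p300 were also wider, which lowers the share without a read. Per kb they held 7.78 input reads, against 5.16 in gaps without p300. The part of the input level in where gaps were called was not tested.

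**Figure D2:**
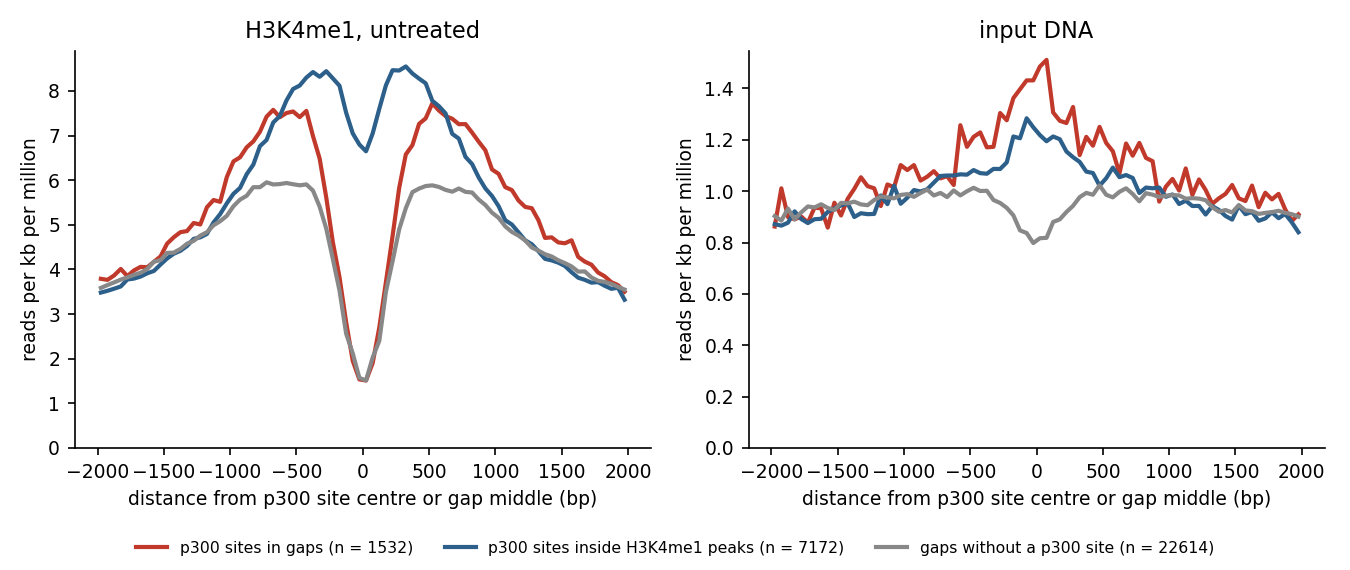
Density of H3K4me1 (left) and input (right) RPKM in 50 bp bins around gap sites, inside sites and the middles of gaps without p300. H3K4me1 is low at the centre in both kinds of gap, while input is highest at gap sites and lowest in gaps without p300.

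The depth of the H3K4me1 dip varied among the gap sites. Sites were split by their p300 reads over the 4 libraries into groups of 15 or fewer, 16 to 32, 33 to 66 and 67 or more, which held 14, 161, 463 and 894 gap sites. The log2 ratio of centre to flanks was −0.60, −1.53, −1.96 and −2.18 in that order at gap sites, and 1.34, 0.56, −0.04 and −0.34 at inside sites. Among gap sites it was −2.10 at the 1330 with a PU.1 peak of the untreated list and −1.72 at the 202 without one. By gap width it ran from −2.41 in the narrowest bin to −1.69 in the widest. The ratio was thus lower at sites with more p300 reads in both classes, and inside sites with 32 p300 reads or fewer had more H3K4me1 at the centre than in the flanks. The central level itself did not fall in this way: it was 2.64, 2.11, 1.95 and 2.16 H3K4me1 reads per gap site and 6.95, 7.93, 8.23 and 8.88 per inside site, from the fewest p300 reads to the most. With untreated replicate 1 left out of the p300 sums, the groups were cut anew at the quartiles of all sites. The H3K4me1 log2 ratios were then −0.81, −1.52, −1.94 and −2.18 at gap sites and 1.28, 0.55, −0.04 and −0.35 at inside sites. In input, the same ratio over the 4-library groups rose with p300 reads. It was −2.97, −0.38, 0.35 and 0.46 at gap sites and −0.95, −0.26, 0.22 and 0.40 at inside sites. The weakest group of gap sites had 1 central input read. The part of input in the H3K4me1 ratio was not tested.

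Few gap sites lay wholly within their gap. The merged p300 site reached both flanking H3K4me1 peaks at 713 gap sites (46.5%), 1 of them at 604 (39.4%) and neither at 215 (14.0%). Counted by an overlap of 1 bp, 1317 gap sites (86.0%) would therefore be p300 sites with H3K4me1, and they formed 13.8% of the 9541 p300 sites that touched the mark. Gap sites had a median width of 730 bp, against 633 bp for inside sites. The p300 centre was a median of 100.5 bp from the middle of its gap, and 535 gap sites (34.9%, 32.5 to 37.4) had it in the central 33.3% of the gap's length.

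At the edges of the width rule, coordinates are those of the peak lists on build mm9, and no gene annotation of that build was used. The narrowest gap, of 100 bp, lay under the site on chromosome 6 from 21947910 to 21948847, whose p300 reads are given among the rises. Just outside, in a gap of 99 bp, the site on chromosome 4 from 122524875 to 122525927 had 12 and 51 p300 reads after LPS, against 12 and 82 in untreated cells. The widest gap, of 1500 bp, held the site on chromosome 5 from 34885635 to 34886530, with 11 and 29 p300 reads after LPS and 9 and 38 in untreated cells. Just beyond, in a gap of 1503 bp, the site on chromosome 19 from 23209194 to 23210701 had 11 and 32 reads after LPS, against 11 and 81 in untreated cells. These pairs did not separate by p300 level.

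PU.1 did not enter the choice of sites. A PU.1 peak of the LPS list overlapped 1340 gap sites (87.5%, 85.7 to 89.1), against 5665 inside sites (79.0%, 78.0 to 79.9). The difference was 8.48 percentage points (95% interval 6.50 to 10.3). In untreated cells 1330 gap sites (86.8%, 85.0 to 88.5) had a PU.1 peak, against 77.5% of inside sites, a difference of 9.32 points (7.29 to 11.2). Both lists named 1286 gap sites, 54 had a peak after LPS alone, 44 in untreated cells alone and 148 (9.66%) in neither, against 17.0% of inside sites in neither. Gap sites were thus more often at PU.1 peaks than inside sites, by more than counting error, in each of the libraries.

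Gap sites also carried more p300, with a median of 77 reads over the 4 libraries, against 54 at inside sites, and were wider. The classes were therefore compared within groups by p300 reads, without matching site width. From the weakest group to the strongest, median reads were 13, 27, 49 and 116 at gap sites. At inside sites they were 14, 26, 47 and 101.5, so p300 was matched least well in the strongest group. With 67 reads or more, 92.8% of gap sites had a PU.1 peak after LPS, against 87.7% of inside sites. With 33 to 66 reads it was 82.7% against 78.1%, with 16 to 32 reads 73.9% against 67.0%, and with 15 or fewer 57.1% against 47.3%. In untreated cells the shares in the strongest group were 92.5% at gap sites and 87.0% at inside sites. Gap sites were higher in all 4 groups under both lists, but only 14 gap sites fell in the weakest. With the groups made without untreated replicate 1, the LPS shares were 92.1% against 87.7%, 84.1% against 78.3% and 75.2% against 67.1% from the strongest group down. In the weakest, of 13 gap sites, the order turned, with 30.8% of gap sites against 46.3% of inside sites.

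**Figure D3:**
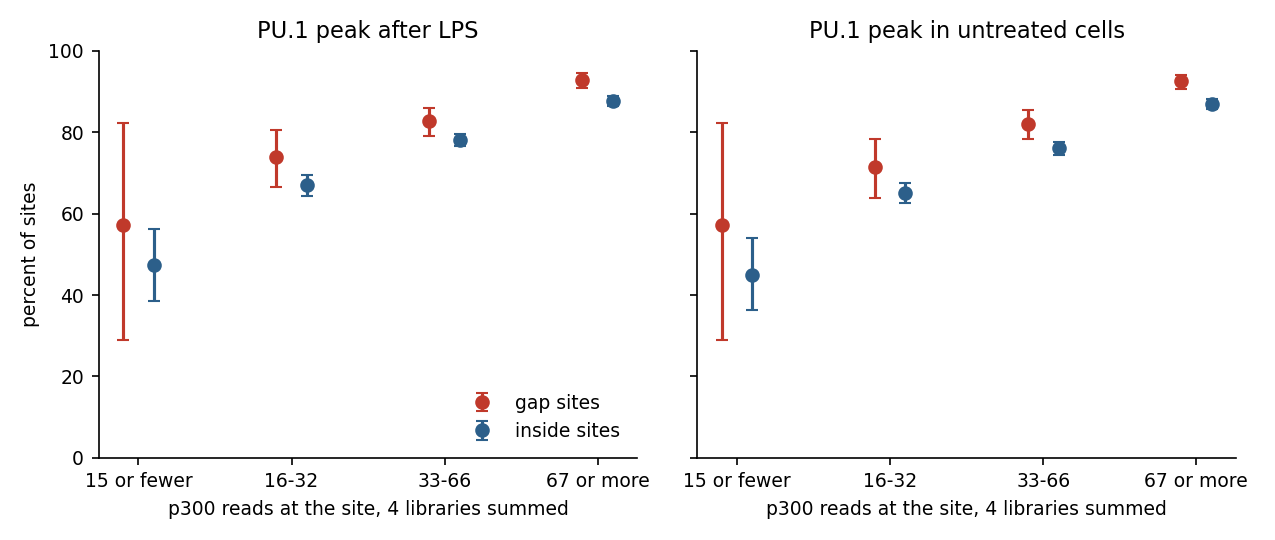
Percent of sites overlapping a PU.1 peak after LPS (left) or in untreated cells (right), by the p300 reads of the site summed over 4 libraries. Points are gap and inside sites with exact 95% intervals. Gap sites lie higher in each group, by 92.8% against 87.7% in the strongest after LPS.

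The PU.1 peak centre lay a median of 69.5 bp from the p300 centre at gap sites in the LPS list and 69 bp in the untreated list, against 78 bp and 77.5 bp at inside sites. It was within 100 bp at 64.9% of gap sites with a PU.1 peak after LPS and at 63.2% in untreated cells, against 59.9% and 59.6% of inside sites. The nearest PU.1 centre lay in the same gap as the p300 centre at 1068 of 1340 gap sites (79.7%) after LPS and at 1071 of 1330 (80.5%) in untreated cells. Central PU.1 density was 38.2 RPKM after LPS and 38.4 in untreated cells at gap sites, and 27.5 and 27.8 at inside sites. Across the 1532 gap sites, PU.1 and p300 reads had a Spearman correlation of 0.538, beside 0.541 over inside sites. Without untreated replicate 1 it was 0.531 over gap sites and 0.535 over inside sites. These points share libraries and site widths, and wide sites collect more reads of both.

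**Figure D4:**
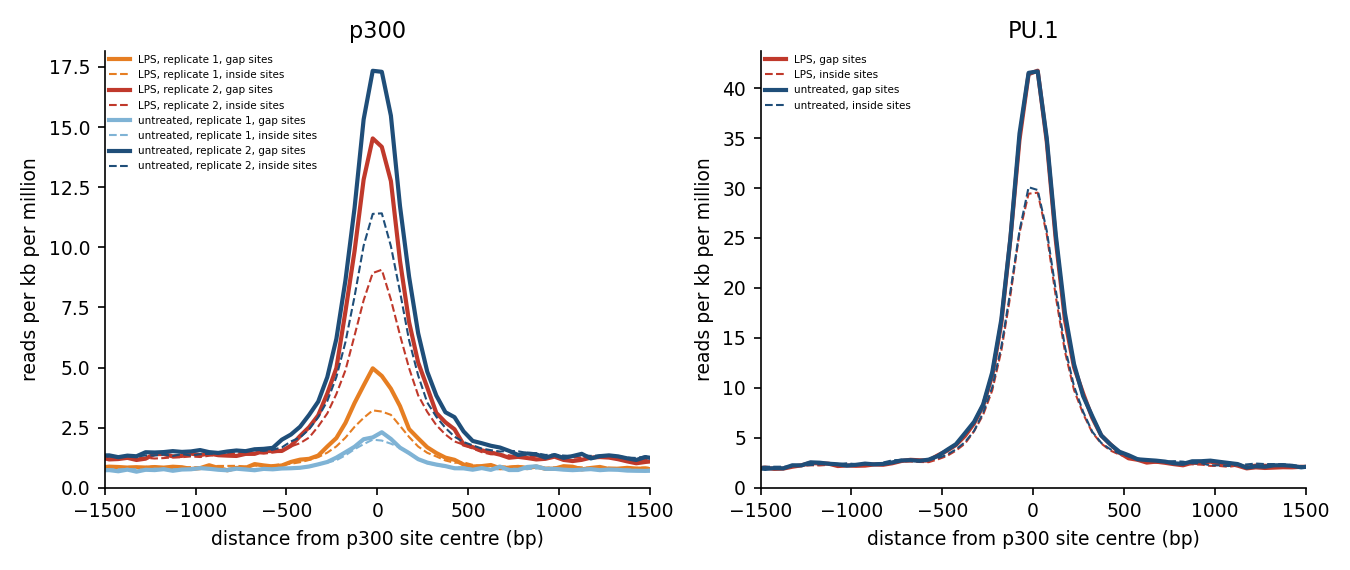
Density of p300 (left) and PU.1 (right) RPKM in 50 bp bins around the centres of gap sites (solid) and inside sites (dashed), for each library. Gap sites are higher in every library, while PU.1 after LPS and in untreated cells nearly coincide.

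p300 at the centre of gap sites had 4.50 and 13.6 RPKM in LPS replicates 1 and 2, against 2.12 and 16.4 in untreated replicates 1 and 2. At inside sites it had 3.08 and 8.41 after LPS and 1.91 and 10.7 in untreated cells. All 4 libraries had a higher p300 density at gap sites, and the conditions overlapped. These densities were not set against input, which was also higher at gap sites (1.46 RPKM, against 1.24 at inside sites). In untreated replicate 1 the classes differed least, and by no more than they did in input. The profiles of p300 and PU.1 show the same order of the classes. A larger share of gap sites was in both p300 lists: 830 (54.2%, 51.6 to 56.7), against 35% of inside sites. Sites of the LPS list alone made up 307 gap sites (20.0%), against 26.9% of inside sites, and those of the untreated list alone 395 (25.8%), against 38.1%. With 67 p300 reads or more, 76.2% of gap sites were in both lists, against 65.6% of inside sites. Since p300 peaks chose both classes, these shares are descriptions.

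The share of gap sites in the p300 reads of gap and inside sites together was 22.0% and 23.6% in LPS replicates 1 and 2, against 19.2% and 23.6% in untreated replicates 1 and 2. The means were 22.8% ± 1.14 after LPS and 21.4% ± 3.07 in untreated cells (SD, n = 2 each). The difference of 1.42 points gave p = 0.667 in a two-sided exact permutation test, for which 4 libraries allow no p below 0.33. Without untreated replicate 1 the difference was −0.75 points.

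All 1532 gap sites passed the minimum of 10 p300 reads. After LPS, p300 rose at 23 gap sites (1.50%), where 1.97% of all 19727 sites tested rose, and fell at 4 (0.261%), where 0.213% of all sites fell. These calls are at an adjusted p of 0.05 or less in limma voom, with libraries scaled by median-of-ratios factors. At inside sites 155 (2.16%) rose and 35 (0.488%) fell. The median log2 fold change was −0.04 over gap sites, −0.22 over inside sites and 0.00 over all sites. The share called at gap sites was near that of all sites in this fit. Normalised reads are scaled to a common library size. Their LPS values were both above the untreated values at 374 gap sites (24.4%; 26.9% of all sites) and both below at 323 (21.1%; 27.7% of all sites). Leaving out a library leaves 1 condition with a lone library, which is then assumed to vary like the remaining pair. Without untreated replicate 1 the gap sites called were 39 higher (2.55%; 2.81% of all sites) and 37 lower (2.42%; 2.05% of all sites). Without untreated replicate 2 they were 5 higher (0.332%; 0.195% of all sites) and 13 lower (0.864%; 4.10% of all sites). Without LPS replicate 1 they were 4 higher (0.262%; 0.494% of all sites) and without LPS replicate 2 they were 7 higher (0.462%; 0.882% of all sites), with 0 lower among gap sites and among all sites in both fits. With libraries scaled by total reads, 0 gap sites and 0 of all 19727 sites were called. The smallest adjusted p was 0.583 (limma voom), among gap sites and among all sites.

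The 23 rises had log2 fold changes of 1.82 to 3.83 (median 2.48) and lay on 12 chromosomes. Of these, 22 were in the LPS p300 list alone and 1 in both lists. Sites entered the set through these lists, which pooled the same p300 libraries that the fit compares. The list of a rise or fall is therefore no separate support for its call, and the p-values do not allow for that choice. Among the 830 gap sites in both lists, 1 was called higher and 0 lower. A PU.1 peak of the untreated list lay at 19 of the 23, where 86.8% of all gap sites had one. No PU.1 peak of either list lay at 3 of them, where 9.66% of all gap sites had none. Their PU.1 reads summed to 1983 after LPS and 1102 in untreated cells, a ratio of 1.80 (exact 95% interval 1.67 to 1.94), with more reads after LPS at 22 of 23. Over the 307 gap sites of the LPS p300 list alone the ratio was 1.24, and over all gap sites 1.03. The 4 falls, with log2 fold changes of −2.80 to −1.93, were all in the untreated p300 list alone and at PU.1 peaks of both lists, as were 1286 of all 1532 gap sites for PU.1. Their PU.1 reads summed to 807 after LPS and 850 in untreated cells, a ratio of 0.949 (0.861 to 1.05). PU.1 reads were thus higher after LPS at the rises, while at the falls the interval of their ratio included 1.

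The residual variance was estimated as 1 value for all sites, so the SE and p of a site do not measure the spread of its own replicates. The largest rise was on chromosome 12 from 120386056 to 120387002, across a 182 bp gap, with 20.3 and 22.8 normalised p300 reads in LPS replicates 1 and 2, against 11.2 and 0.569 in untreated replicates 1 and 2. Its log2 fold change was 3.83 ± 0.82 (SE), with an adjusted p of 0.00102 in limma voom. Untreated replicate 1 had more than untreated replicate 2, a library of higher enrichment, and without untreated replicate 2 it fitted a log2 fold change of 0.70 and the call was lost (adjusted p = 0.762, limma voom). PU.1 had 92 reads after LPS and 48 in untreated cells.

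The site on chromosome 19 from 34714629 to 34716006, across a 659 bp gap, had 78.2 and 113 normalised reads after LPS, against 24.2 and 5.12 in untreated cells. Means were 95.9 ± 24.9 after LPS and 14.6 ± 13.5 in untreated cells (SD, n = 2 each), and the log2 fold change was 3.46 ± 0.59 (SE), with an adjusted p of 1.08e-05 in limma voom, the smallest among gap sites. Both LPS libraries were far above both untreated ones, and PU.1 moved the same way, with 91 reads after LPS and 19 in untreated cells. Leaving out untreated replicate 2 gave 1.70 on the log2 scale and ended the call (adjusted p = 0.0786, limma voom).

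In the narrowest gap, the site on chromosome 6 from 21947910 to 21948847 had 53.6 and 74.3 normalised reads after LPS, against 7.44 and 5.69 in untreated cells. It had no PU.1 peak, and its PU.1 reads were 19 after LPS and 11 in untreated cells. The replicates of each condition lay close together here, and the log2 fold change was 3.30 ± 0.62 (SE; adjusted p = 9.71e-05, limma voom). The site on chromosome 12 from 27123941 to 27124962 had 60.9 and 77.6 normalised reads after LPS, against 13.0 and 6.83 in untreated cells, and 38 PU.1 reads after LPS beside 16 in untreated cells. The site on chromosome 16 from 84621453 to 84622496, in a gap of 1494 bp, had 36.2 and 77.0 normalised reads after LPS, against 0 and 10.8 in untreated cells, and 52 PU.1 reads after LPS beside 21. At both sites the conditions did not overlap, and the log2 fold changes were 3.02 and 3.01. The call on chromosome 12 was lost without LPS replicate 1, where the log2 fold change was 3.38 (adjusted p = 0.0589, limma voom). The call on chromosome 16 held without untreated replicate 1 and was lost without each of the other libraries, with log2 fold changes of 3.66 without LPS replicate 1 and 2.55 without LPS replicate 2. Without untreated replicate 2, which left an untreated library at 0 reads, its log2 fold change was 5.60.

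The named falls lay at sites with many PU.1 reads. On chromosome 15 from 61888931 to 61889506, p300 had 4.35 and 3.91 normalised reads after LPS, against 16.7 and 29.6 in untreated cells, while PU.1 had 168 reads in each condition. The log2 fold change was −2.38 ± 0.72 (SE; adjusted p = 0.0445, limma voom). The conditions were apart in p300 but equal in PU.1 at this site. On chromosome 16 from 11385746 to 11386376, p300 had 8.69 and 2.61 after LPS, against 24.2 and 15.9 in untreated cells, with 192 PU.1 reads after LPS and 206 in untreated cells. On chromosome 11 from 62864528 to 62865372, p300 had 5.80 and 10.4 after LPS, against 27.9 and 45.5 in untreated cells, with 260 and 262 PU.1 reads. The LPS libraries lay below the untreated ones at all 3 sites. Each of these calls was lost without LPS replicate 1 and without LPS replicate 2, and those on chromosomes 15 and 11 also without untreated replicate 2. On chromosome 15 the log2 fold changes in these fits were −2.28, −1.92 and −2.15, and on chromosome 11 they were −1.53, −2.19 and −1.81. On chromosome 16 it was −2.67 without LPS replicate 1 and −0.99 without LPS replicate 2. With all libraries the log2 fold changes on chromosomes 16 and 11 were −2.35 and −1.93. The change thus kept its direction where the call was lost, but was far smaller on chromosome 16 without LPS replicate 2. The call on chromosome 16 was also lost in limma-trend, at −1.66 (adjusted p = 0.110, limma-trend). With no read minimum those on chromosomes 15 and 11 were lost (adjusted p = 0.0525 and 0.0506, limma voom). The remaining fall, on chromosome 3 from 10025827 to 10026226, had the largest fitted change (−2.80). It had 8 and 1 p300 reads after LPS, against 6 and 26 in untreated cells, and its libraries overlapped between conditions after scaling.

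**Figure D5:**
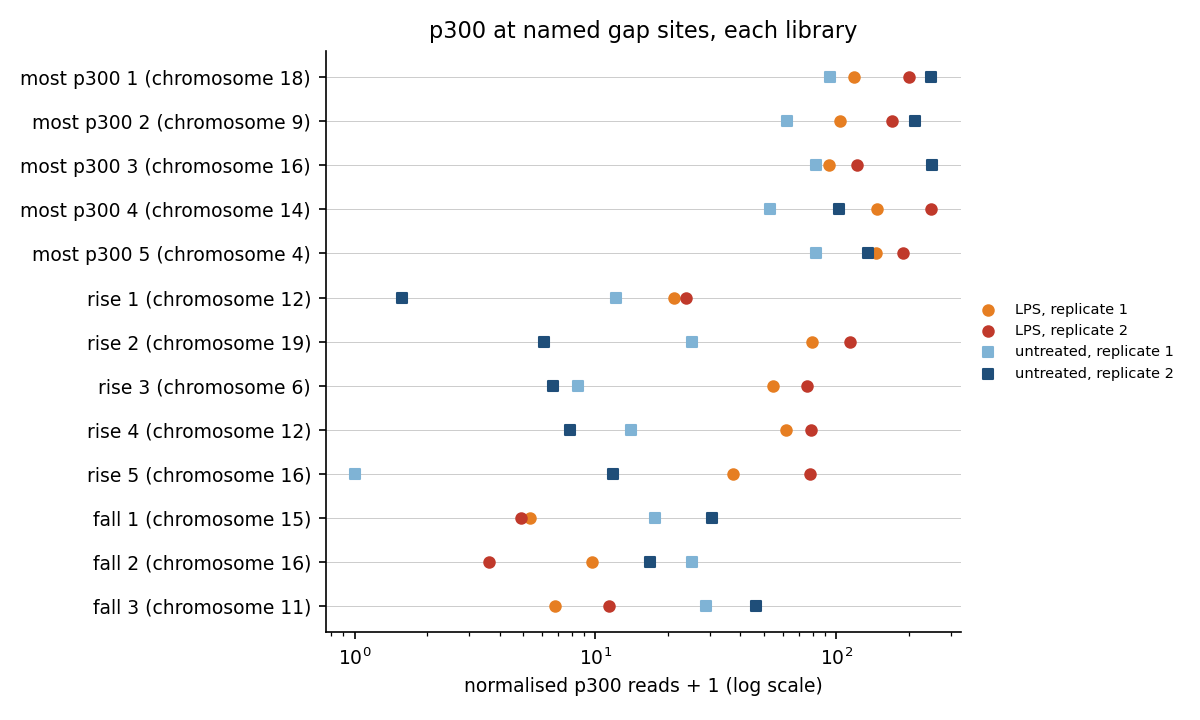
Normalised p300 reads plus 1 (log axis) in each LPS and untreated library at the 5 gap sites with the most p300 reads, the 5 largest rises and the 3 largest falls among called sites whose conditions do not overlap. Conditions overlap at 3 of the 5 strongest sites and are apart at all rises and falls, which were chosen that way.

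None of the 5 gap sites with the most p300 was called in this fit. On chromosome 18 from 36867790 to 36869178 there were 81 and 307 reads after LPS, against 50 and 433 in untreated cells. On chromosome 9 from 65388997 to 65390863 there were 71 and 259 after LPS, against 33 and 373, and on chromosome 16 from 25057707 to 25060743 there were 64 and 185, against 44 and 437. In each of these sites the replicates of one condition differed more than the conditions did. The site on chromosome 14 from 103431842 to 103434086 had 101 and 377 reads after LPS, against 28 and 179 in untreated cells, with a log2 fold change of 1.40 (adjusted p = 0.229, limma voom). The fifth, on chromosome 4 from 144856493 to 144859061, had 100 and 288 reads after LPS, against 44 and 237. After scaling, both LPS libraries were above both untreated ones at these last sites, without passing the threshold. All 5 were in both p300 lists and at PU.1 peaks in both conditions.

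Gap sites with the most PU.1 likewise had similar reads in both conditions. The site on chromosome 16 from 91521825 to 91523733 had 444 PU.1 reads after LPS and 461 in untreated cells, and the site on chromosome 3 from 89714879 to 89715784 had 429 and 414. Of these, the site on chromosome 9 from 65388997 was the single one among both the 5 with the most PU.1 and the 5 with the most p300. The site on chromosome 3 had 18 and 33 p300 reads after LPS, against 8 and 59 in untreated cells, and that on chromosome 19 from 4231218 to 4232584, with 380 PU.1 reads after LPS and 388 in untreated cells, had 16 and 33 p300 reads after LPS, against 16 and 48. Their sums of 118 and 113 p300 reads were above the median of 77 over gap sites and far below the 871 of the chromosome 18 site, which had 189 PU.1 reads after LPS and 180 in untreated cells.

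Among sites with no PU.1 peak in either list, the most p300 was on chromosome 19 from 6944501 to 6946953, with 109 and 123 normalised reads after LPS, against 27.9 and 18.8 in untreated cells. p300 rose there by 2.30 ± 0.57 on the log2 scale (SE; adjusted p = 0.00773, limma voom). That call was kept without untreated replicate 1 and lost without each of the other libraries (adjusted p of 0.0552 to 0.312, limma voom), with log2 fold changes of 1.83 to 2.48. Its PU.1 reads were 174 after LPS and 48 in untreated cells, a ratio of 3.63 (2.62 to 5.10), although no PU.1 peak was listed there. The next, on chromosome 16 from 25061134 to 25062547, lies beside the strong chromosome 16 site above and had 30 PU.1 reads after LPS and 24 in untreated cells. Its p300 reads were 30 and 88 after LPS, against 18 and 173.

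Over all gap sites PU.1 reads were 145729 after LPS and 141191 in untreated cells, a ratio of 1.03 (1.02 to 1.04), and over inside sites the ratio was also 1.03 (1.02 to 1.03). These ratios were not scaled to depth, and the LPS library was deeper (6066579 reads used, against 5828606). Of the reads used, gap sites held 2.40% after LPS and 2.42% in untreated cells, and inside sites 8.59% and 8.72%. Per read used, neither class thus had more PU.1 after LPS. Split by p300 list, the ratio at gap sites was 1.24 (1.21 to 1.26) for the LPS list alone, 1.03 for both lists and 0.928 (0.914 to 0.943) for the untreated list alone. At inside sites it was 1.33 (1.32 to 1.34), 1.04 and 0.878 in the same order. The ratios of gap sites lay nearer to 1 than those of inside sites in both single-list classes, with intervals that did not overlap (0.873 to 0.884 at inside sites of the untreated list alone). Of 1366 gap sites with at least 40 PU.1 reads, 1311 (96.0%) had a ratio within 2-fold of 1, 9 (0.659%) were more than 2-fold higher with their whole interval, and 0 were so far lower. Over all sites with as many reads, 1.53% were so far higher and 0.117% so far lower. The highest ratio, 5.13 (2.37 to 12.7), was on chromosome 9 from 107198368 to 107199367, with 41 PU.1 reads after LPS and 8 in untreated cells and a PU.1 peak after LPS alone. PU.1 reads at gap sites therefore seldom differed between the LPS and untreated libraries by more than 2-fold.

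Changes in p300 and in PU.1, on the log2 scale, had a Spearman correlation of 0.487 over these 1366 gap sites, beside 0.593 over 5505 inside sites. Without untreated replicate 1 the values were 0.494 and 0.592, the second over 5501 inside sites. Over the 801 gap sites in both p300 lists it was 0.453, beside 0.466 over 2235 inside sites. The log2 changes of p300 replicate 1 and replicate 2 correlated at 0.419 over 830 gap sites in both lists, beside 0.293 over 2513 inside sites. These are descriptions over sites that share libraries, and the replicate numbers are not said to pair cultures.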

How the data were processed

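Positions and strands of aligned 36 bp reads and lists of peaks were taken as deposited. Per the file headers the peak caller was MACS, and a peak's score was 10 times the −log10 p-value. Controls named there were naked for p300, random for PU.1 and input for H3K4me1. Build mm9 comes from the submitters' processing notes. Aligner and MACS version: not given in the sources used here. One header conflicts with its label, since LPS stands in that of the untreated PU.1 list. Reads in peaks unique to this list numbered 112983 for LPS and 205573 for untreated cells, so the label was followed.

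Counts were made here from the authors' reads. Of reads with the same position and strand 1 was used, and 5′ ends were moved 100 bp downstream. p300 peaks of both lists were merged, sites with at least 10 reads were fitted together with limma voom (limma 3.58.1, R 4.3.3, treatment alone, Benjamini-Hochberg adjustment at 0.05), and overlaps of 1 bp counted. Shares have exact Clopper-Pearson 95% intervals, read ratios exact intervals conditional on the sum, and differences of shares Newcombe intervals (Python 3.11.15, scipy 1.17.1). PU.1 ratios of the classes were divided by the median LPS to untreated ratio over merged PU.1 peaks, which was 1. Gap classes were checked against a direct search on random intervals. The fit was run on simulated counts with Poisson spread alone. That simulation had no variation between cultures, so it cannot show how the fit behaves with the unequal replicates here. Other gap widths, scores, scalings, filters, read handling and left-out replicates were tried.

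Named sites were the 5 gap sites with the most p300 reads, up to 5 rises and 5 falls (called, 40 or more reads, no overlap between conditions), the 5 with the most PU.1 reads, the 5 with the most p300 reads and no PU.1 peak, and the sites at the width thresholds. The fall on chromosome 3 and the site with the highest PU.1 ratio fall outside it and were chosen after their values were seen. Members, lists and tests were chosen with earlier results of these data known. The files do not say whether peak starts count from 0 or 1. Gene annotation and sequence were not analysed here.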

Additional observations from a re-analysis of the deposited data

How the results depend on the processing

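The fits called 23 gap sites higher and 4 lower. Scaling by total reads or by background bins gave 0 and 0 in limma voom, at gap sites and over all sites. Under these scalings 32 and 30 gap sites had an unadjusted p under 0.05 (251 as reported). The smallest adjusted p was 0.583 and 0.604 (limma voom). No read minimum gave 20 higher and 1 lower, limma-trend 31 higher, 16 of them among the reported 23, and 2 lower, and leaving out a replicate 4 to 39 higher and 0 to 37 lower. With the replicate number as a block, 95 (6.20%; 4.54% of all sites) were higher and 41 (2.68%; 2.00% of all sites) lower, 23 and 3 of them among the reported calls. The block also called the chromosome 14 site, 1.35 (adjusted p = 0.00156, limma voom), and that on chromosome 6 from 122603706, −1.10 (0.0178). With 2 replicates a group the numbers are not shown to pair samples, though deviations correlated at 0.233. The LPS minus untreated read share ran from −0.75 to 3.59 points on leaving out a replicate. Gaps of 200 to 1000 bp gave 1006 sites, p300 scores of at least 100 gave 960, and whole sites in the gap 215. PU.1 shares at gap sites (LPS, then untreated) were 89.3% and 88.6% for 200 to 1000 bp, 83.0% and 83.0% up to 3000 bp, 91.7% and 91.0% for p300 scores of at least 100, 82.3% and 83.7% for whole sites, 89.8% and 90.1% for the untreated p300 list, and 78.0% and 77.0% for PU.1 scores of at least 100. A PU.1 peak within 100 bp gave 84.8% untreated. At inside sites they were 86.0% and 84.3% for p300 scores of at least 100, 81.2% and 82.0% for the untreated p300 list, 76.5% and 74.6% within 100 bp, and 66.6% and 65.2% for PU.1 scores of at least 100. Untreated alone it was 78.7% for H3K4me1 scores of at least 100 and 75.7% for the LPS p300 list. Gap sites had the higher share in each of these settings run on both classes. The setting of whole sites applies to gap sites alone. Its LPS interval, 76.6 to 87.2, included the 79.0% of inside sites. Its untreated interval, 78.1 to 88.4, lay above their 77.5%. The LPS-only share was 15.3% at gap and 24.1% at inside sites for H3K4me1 scores of at least 100, 24.5% and 28.6% for p300 scores of at least 100, and 26% for whole sites. The PU.1 ratio of LPS to untreated at gap sites was 1.04 (200 to 1000 bp), 1.01 (H3K4me1 scores of at least 100), 1.00 (whole sites), 1.00 (untreated p300 list), 1.07 (LPS p300 list) and 1.05 (all reads). At inside sites it was 1.02, 1.05 (p300 scores of at least 100), 1.12 (LPS p300 list), 1.04 (all reads) and, reversed, 0.962 (untreated p300 list). The H3K4me1 log2 ratio at gap sites was −1.97 (up to 3000 bp), −1.96 and −2.16 (H3K4me1 and p300 scores of at least 100), −1.52 (whole sites), −2.17 (untreated p300 list), −2.16 (50 bp shift) and −1.31 (central 400 bp against 500 to 1500 bp). At inside sites it was −0.11, −0.27, −0.20 (untreated p300 list), −0.10 (LPS p300 list) and, reversed, 0.36 with the wider centre. Uncalled named sites that changed sign ran over left-out replicates from −0.82 to 0.76 (chromosome 18), −0.81 to 0.99 (chromosome 9), −1.33 to 0.16 and −1.06 to 0.38 (chromosome 16, 25057707 and 25061134), −1.12 to 0.086 (chromosome 16, 91521825), −0.58 to 0.51 (chromosome 3, 89714879) and −0.080 to 1.48 (chromosome 7, 87972677). The block gave −0.040 on chromosome 18 and −0.16 on chromosome 3, all reads −0.055 on chromosome 3, and a 50 bp shift 0.078 at chromosome 16, 25061134. Groups by p300 reads and correlations without untreated replicate 1 were added after seeing the data. The cause of these changes was not tested. An LPS-only share was not computed for single lists. PU.1, H3K4me1 and input had 1 library each, so their intervals leave out variation between cultures, and 2 replicates with unequal enrichment limit the p300 calls.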
